A study of Mus musculus with 7 samples.

Results

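miR-132 and miR-212 are a pair of microRNAs cut from neighbouring hairpins of 1 transcript, and each hairpin gives a 5p and a 3p arm. The 4 arms were chosen by name, as the 4 rows mmu-miR-132-3p, mmu-miR-132-5p, mmu-miR-212-3p and mmu-miR-212-5p among 1914 mature mouse miRNA rows. They were proposed with their levels, arm use, ratio and knockout contrast in these libraries known, so these values are described without a test of their own. Calls of the arms come from fits over all tested miRNAs and are given as a description. Small RNA was taken from adult mice of strain C57BL/6J, from lateral ventricles with choroid plexus, as 4 libraries of genotype TAp73 Knock-out and 3 of genotype Wild-type. TAp73 denotes the isoforms of p73, a p53-family transcription factor, that keep the transactivation domain. How the knockout allele was made, and whether each library is 1 animal, is not given in the sources used here, and Trp73 itself was not measured. The libraries are called KO1 to KO4 and WT1 to WT3, and these numbers only name them.

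In neurons the shared transcript is known as a target of the activity-dependent factor CREB, and both miRNAs are known for roles in dendrite growth and synaptic plasticity. The 3p arm of miR-132 is the one most studied. A miRNA pairs with its targets mainly through its seed, bases 2 to 8 from the 5′ end. Neuronal activity was not measured in this study.

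Both hairpins lie on the plus strand of chromosome 11 (build GRCm38). Mir212 is at chr11:75173388-75173478 and Mir132 at chr11:75173682-75173747, with 203 bases between them. In GENCODE M21 both lie in intron 1 of the noncoding host transcript 1700016P03Rik (chr11:75172560-75177633, plus strand, 3 exons), 828 and 1122 bases after its start. No other annotated gene overlaps either hairpin. Sequences are from RefSeq (GRCm38.p6), in which all 4 arms were matched by name. The hairpins are shown because they place the arms compared throughout, with the mature arms in capitals, 5p first:
Mir212: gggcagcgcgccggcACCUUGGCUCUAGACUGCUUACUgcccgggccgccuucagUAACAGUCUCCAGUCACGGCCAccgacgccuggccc
Mir132: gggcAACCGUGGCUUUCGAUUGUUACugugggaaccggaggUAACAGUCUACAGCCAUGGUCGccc

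The mature arms are shown with the seed in capitals, because the 3p arms share it and the 5p arms do not:
miR-132-3p: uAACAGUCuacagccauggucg
miR-212-3p: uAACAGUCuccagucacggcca
miR-132-5p: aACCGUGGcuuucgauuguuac
miR-212-5p: aCCUUGGCucuagacugcuuacu
The 4 arms therefore hold 3 seeds. Among the 1679 mature mouse names of the RefSeq table, 0 others carry one of these seeds. The 3p arms are identical at 17 of 22 positions. Their differences, counted from 1 at the 5′ end with miR-132-3p first, are A10C, C14U, U17C, U20C and G22A, all outside the seed. The 5p arms align with miR-132-5p starting 1 base earlier and are identical at 14 of 21 aligned positions. The first difference, G5U in the numbering of miR-132-5p, lies inside the seed of both. With this many differences the reads of the paired arms can be told apart, although no source used here gives the counting rules.

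Assigned reads ran from 969106 in KO3 to 9343921 in KO1, and mouse miRNAs took 98.6% to 99.0% of them. CPM, the unit of level used here, is the count of a row divided by the library's mouse miRNA reads times its TMM factor, per 1000000. These factors lay between 0.968 and 1.07. The tissue's own markers were present: miR-204-5p of the choroid plexus stood at 6175 ± 3329 CPM (SD, n = 7), and the most abundant miRNA of the multiciliated cell list, miR-34c-5p, at 1313 ± 1245. For miR-34c-5p this mean pools unlike groups, at 463 ± 113 CPM in the knockouts and 2447 ± 1122 in the wild types (SD). Neuronal miRNAs were also abundant, with miR-128-3p at 15897 ± 4625 CPM (SD, n = 7). KO3 and WT2 stood apart from the other 5 libraries, with choroid plexus list sums of 2051 and 1985 CPM against 5118 to 10993. They also had the fewest assigned reads, 969106 and 2238917 against 2727175 to 9343921. In bulk tissue, fewer cells of a type and less RNA per cell cannot be told apart.

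The most abundant arm was miR-132-3p, at 4076 ± 934 CPM (SD, n = 7), 38th among the mouse rows by mean level. miR-212-5p followed at 2939 ± 753 CPM in place 44, miR-212-3p at 564 ± 125 CPM in place 95 and miR-132-5p at 419 ± 105 CPM in place 111. Together the most abundant arm of each hairpin took 0.405% and 0.293% of mouse miRNA reads. Each arm had at least 443 reads in each library, so the counting error of the lowest value was 4.75%, below the spread between libraries of 22.1% to 25.6% of the mean. Adapter ligation favours some sequences over others, so ratios between arms are ratios of reads and not of molecules.

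The order of the arms was the same in 6 libraries and changed at its top in the other one. miR-132-3p exceeded miR-212-5p by 1.29 to 1.83 times in the libraries other than KO3, where the ratio was 0.945. These top neighbours had overlapping ranges of level, 2493 to 5066 CPM and 1820.4 to 4216 CPM. miR-212-3p exceeded miR-132-5p in each library, by 1.23 to 1.66 times, although their ranges over libraries also overlapped. The gap between miR-212-5p and miR-212-3p was the wide one, at 4.19 to 6.57 times in each library.

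miR-132-3p, the most studied of the arms, stood at 5066, 4804, 3985 and 4816 CPM in KO1 to KO4. In WT1 to WT3 it stood at 3265, 4104 and 2493 CPM. The knockouts were the higher group except that KO3 lay below WT2, so the groups overlapped by this 1 pair. The mean ± SD was 4668 ± 471.0 CPM over the knockouts (n = 4) and 3287 ± 806 over the wild types (n = 3), and 11 of the 12 knockout and wild type pairs had the knockout higher.

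Its partner from the same hairpin, miR-132-5p, is the arm usually found at the lower level. It stood at 458, 497, 472 and 425 CPM in KO1 to KO4. In the wild types it stood at 329.9, 523 and 227 CPM. The lowest and the highest of the 7 values were both wild types, WT3 and WT2, and the knockouts lay between WT1 and WT2. The mean ± SD was 463 ± 29.8 CPM over the knockouts (n = 4) and 360.1 ± 150.5 over the wild types (n = 3).

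miR-212-3p, which shares the seed of miR-132-3p, stood at 659, 628, 642 and 564 CPM in KO1 to KO4. In WT1 to WT3 it stood at 405, 678 and 376 CPM. As for miR-132-5p, WT2 was above each knockout while WT1 and WT3 were below each of them. Knockouts averaged 623 ± 41.7 CPM (SD, n = 4) and wild types 486 ± 167 (SD, n = 3).

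miR-212-5p, the main arm of its hairpin here, stood at 2762, 2987, 4216 and 3238 CPM in KO1 to KO4. In WT1 to WT3 it stood at 2357, 3189 and 1820.4 CPM. KO3 was the highest library for this arm and the lowest knockout for miR-132-3p. WT2 lay above KO1 and KO2, so the groups overlapped. Knockouts averaged 3301 ± 640.2 CPM (SD, n = 4) and wild types 2456 ± 690 (SD, n = 3).

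**Figure D1:**
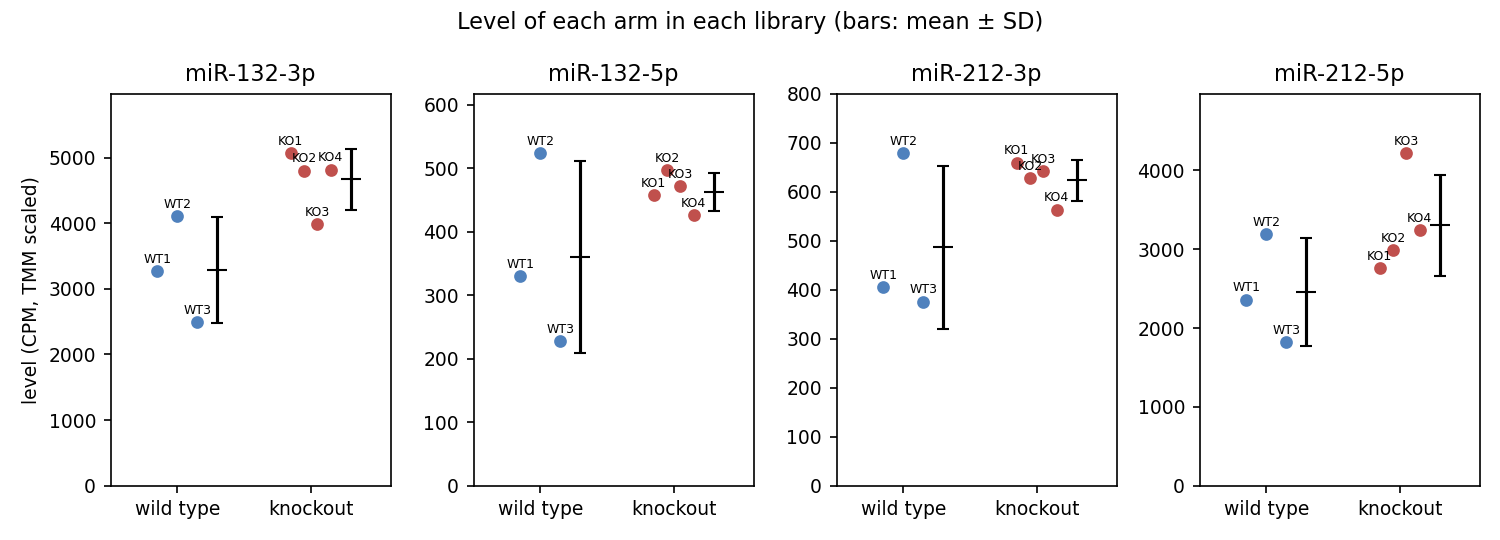
Level of each arm in each library, in CPM with TMM scaling on axes that start at 0. Points are libraries (blue, wild type, red, TAp73 knockout), and black bars are the mean ± SD of each group. By SD the wild types spread more widely than the knockouts for each arm, with WT3 lowest and WT2 the highest wild type. For miR-212-5p the SDs were close, at 690 CPM in wild types and 640 in knockouts, and the knockouts had the wider range.

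In the comparison of genotypes, which addresses how TAp73 bears on posttranscriptional regulators in this tissue, each of the 4 arms had a higher mean in the knockouts, by 1.28 to 1.42 times, and 0 of 4 were called. The edgeR quasi-likelihood fit over all 534 miRNAs that passed the filter, with Benjamini-Hochberg adjustment and calls under 0.05, called 0.375% of them as higher and 1.12% in either direction. At an unadjusted threshold of 0.05 it gave 1 of the 4 arms, miR-132-3p, where 6.18% of all tested were past it in this direction. For 63 of the 534 miRNAs DESeq2 gave no adjusted p, and its share counts these as not called. DESeq2, which called 1.31% of those tested as higher, and limma-voom, which called 0.375%, also called 0 of 4 arms. Under the unadjusted threshold they gave 1 and 2 arms, beside 5.99% and 6.55% of all tested as higher. With no filter on low counts edgeR called 1 of 4, miR-132-3p, beside 0.701% of 1284 miRNAs as higher. All 4 arms passed the filter. All 4 log2 fold changes were above 0, as were those of 47.2% of the miRNAs tested. The arms come from 1 transcript and are not independent of each other. Their median was 0.40 and that over all tested miRNAs was -0.02.

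miR-132-3p had a log2 fold change, knockout minus wild type, of 0.51 ± 0.17 (SE), with a 95% interval of 0.14 to 0.87. In fold terms this is 1.42, with an interval of 1.10 to 1.83. This interval does not allow for the number of miRNAs tested. miR-212-5p had 0.43 ± 0.20 (interval -0.01 to 0.87). miR-132-5p had 0.37 ± 0.23 (-0.15 to 0.88) and miR-212-3p had 0.36 ± 0.20 (-0.07 to 0.79). The intervals of the 4 arms overlap over most of their length. By size, the value of miR-132-3p took place 28 among the 534.

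WT2, the highest wild type for each arm, was the library that most changed these values. Leaving it out lowers the wild type mean of each arm, so calls made without it are a description and no separate support. Without it, edgeR called 2 of the 4 arms, miR-132-3p and miR-212-3p, where 1.10% of 547 tested were called as higher. The log2 fold changes were then 0.72 ± 0.15 for miR-132-3p, 0.69 ± 0.15 for miR-212-3p, 0.76 ± 0.18 for miR-132-5p and 0.68 ± 0.19 for miR-212-5p. Without WT3 the values were lower for each arm, from 0.12 for miR-132-5p to 0.34 for miR-132-3p, with 0 of 4 called and 0.187% of all tested called as higher. With KO3 and WT2, the libraries with the fewest assigned reads, both left out, the same 2 arms were called. Of all tested, 1.30% were then called as higher, and the values of the arms were 0.54 to 0.78. The 4 libraries with consecutive title numbers, a possible cohort, were KO1, KO2, WT1 and WT2. In them miR-132-3p had 0.43 ± 0.18 while miR-212-5p had 0.06 ± 0.19, with 0 of 4 called and 0.542% of all tested called as higher. This set lacks WT3, the lowest wild type for each arm, and KO3, the highest knockout for miR-212-5p. An effect of cohort cannot be told apart from their absence.

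**Figure D2:**
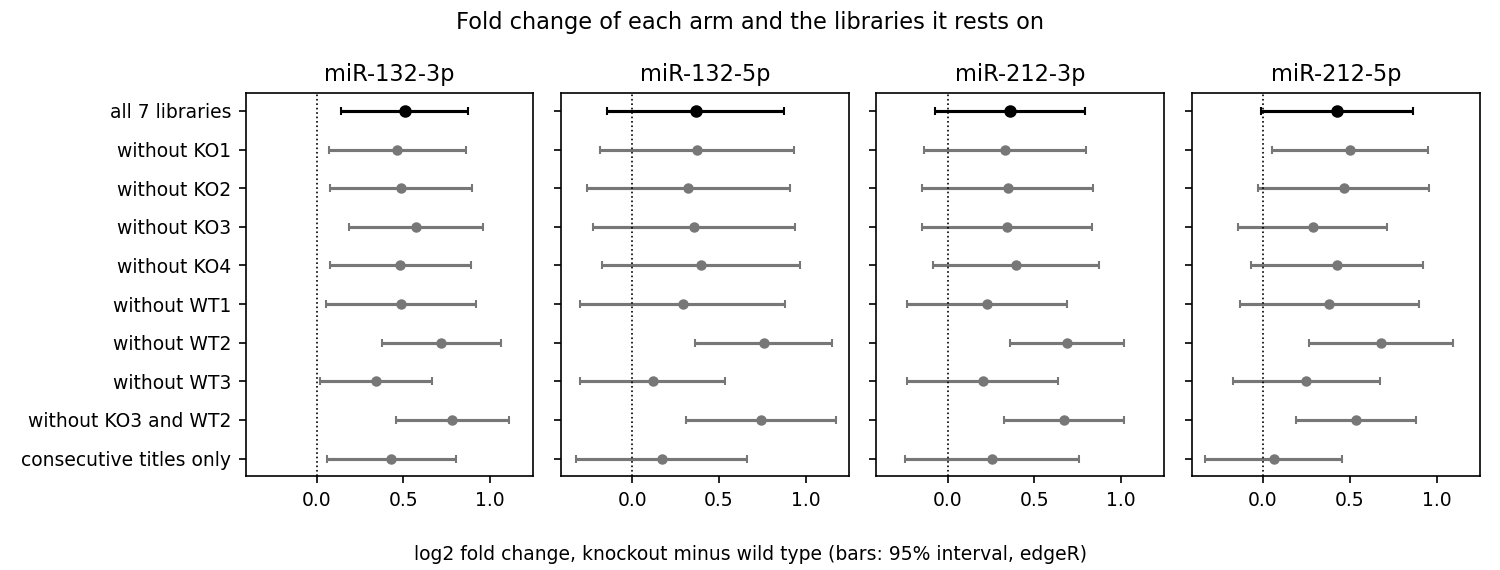
Log2 fold change of each arm, knockout minus wild type, from edgeR with all 7 libraries (black), with single libraries left out, without KO3 and WT2, and with the 4 libraries of consecutive title numbers (grey). Bars are 95% intervals not adjusted for the number of miRNAs, and the values range from 0.06 to 0.78, all above 0.

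Summed over the 4 arms, the knockouts lay close together and the wild types did not. The sums were 8946, 8915, 9314 and 9044 CPM in KO1 to KO4, and 6357, 8495 and 4916 CPM in WT1 to WT3. Each knockout lay above each wild type, a pattern that 4.87% of single tested miRNAs showed in this direction, and the highest knockout was 1.04 times the lowest. The highest wild type was 1.73 times the lowest. The difference of the group means of the log2 sums was 0.49, and it was 0.28 in the 4 libraries with consecutive title numbers. By library totals alone the separation was narrow, with 8660 CPM in the lowest knockout and 8624 CPM in WT2.

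miR-132 and miR-212 were read mostly from opposite arms. The 3p arm took 90.7% ± 1.23 of miR-132 reads (SD, n = 7) and 16.3% ± 2.11 of miR-212 reads. For miR-132 the share was 91.7%, 90.6%, 89.4% and 91.9% in KO1 to KO4 and 90.8%, 88.7% and 91.7% in WT1 to WT3. For miR-212 it was 19.3%, 17.4%, 13.2% and 14.8% in KO1 to KO4 and 14.7%, 17.5% and 17.1% in WT1 to WT3. The 2 hairpins thus lay on opposite sides of an even split in each library.

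The arm shares differed between libraries by more than counting error, and the ranges of the groups overlapped. For miR-212 the exact Clopper-Pearson 95% interval was 18.8% to 19.7% in KO1, from 30585 reads, and 12.2% to 14.2% in KO3, from 4558 reads. For miR-132 it was 88.1% to 89.3% in WT2 and 91.5% to 92.3% in KO4. These intervals cover counting error only. The group means of the 3p share were 90.9% ± 1.14 and 90.4% ± 1.53 for miR-132, and 16.2% ± 2.69 and 16.4% ± 1.56 for miR-212, in knockouts and wild types (SD, n = 4 and n = 3). The lowest and highest libraries for miR-212 were both knockouts.

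Both hairpins were less one-sided than most. Among 245 hairpins with both arms in the tables and a mean of at least 10 CPM, 53.9% had more 3p than 5p reads, and 29.4% had a 3p share between 10% and 90%. miR-212 lay inside that range, with 33.5% of hairpins below it. miR-132 lay just outside it, with 61.6% of hairpins below. The lesser arm took a smaller share in 68.6% of hairpins than in miR-132, and in 75.9% than in miR-212. The SD of the 3p share over libraries was 1.23 percentage points for miR-132 and 2.11 for miR-212, where the median hairpin had 1.10.

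**Figure D3:**
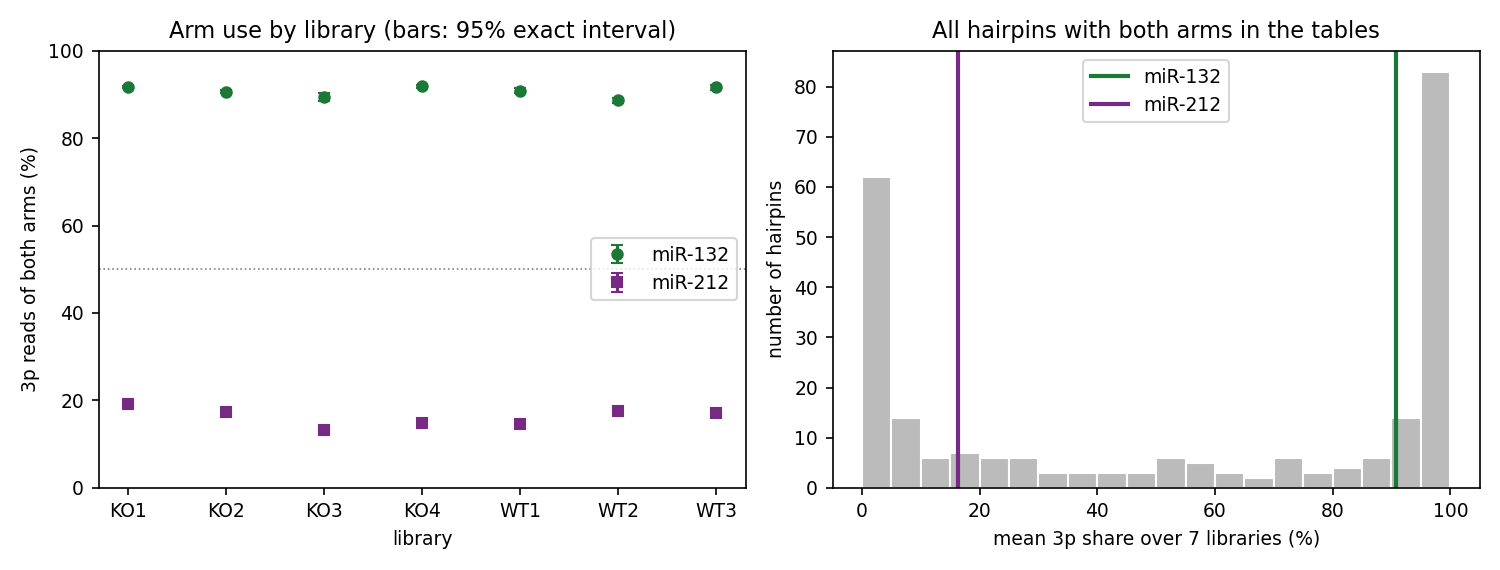
Left, share of 3p reads among both arms of miR-132 (circles) and miR-212 (squares) in each library, with 95% exact intervals for counting error. Right, mean 3p share of the 245 hairpins, with miR-132 at 90.7% and miR-212 at 16.3% marked as lines.

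Counted over both arms, miR-132 had 1.61, 1.47, 0.918 and 1.38 times the reads of miR-212 in KO1 to KO4 and 1.30, 1.20 and 1.24 times in WT1 to WT3. KO3 was the only library of the 7 in which miR-212 had more reads. The wild types lay inside the range of the knockouts, and the log2 ratio averaged 0.40 ± 0.36 over the knockouts (SD, n = 4) against 0.32 ± 0.06 over the wild types (SD, n = 3).

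The ratio depended on which arms were compared. Between the 3p arms, which share a seed, miR-132 had 6.05 to 8.54 times the reads of miR-212. Between the 5p arms it had 0.112 to 0.166 times. Of the summed reads of the 3p arms, which carry the seed AACAGUC, miR-132-3p gave 85.8% to 89.5% in each library. Together the 3p arms stood at 5725, 5431, 4626 and 5380 CPM in KO1 to KO4. In WT1 to WT3 they stood at 3669, 4782 and 2869 CPM, again with KO3 below WT2.

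Neuron-enriched miRNAs were set beside the arms as a list. Its 18 arms of miR-124, miR-128, miR-129, miR-137, miR-138, miR-153 and miR-218, all with reads, summed to 34414, 36081, 39896 and 34820 CPM in KO1 to KO4, and to 30070, 34994 and 20032 CPM in WT1 to WT3. Among the wild types WT3 was lowest and WT2 highest, as for each of the 4 arms. Among the knockouts the order was not that of miR-132-3p, since KO3 had the highest list sum and the lowest miR-132-3p and KO1 the lowest list sum and the highest miR-132-3p. For miR-212-5p, as for the list, KO3 was the highest and KO1 the lowest knockout. miR-132-5p and miR-212-3p shared neither end with the list. WT2 exceeded WT3 by 1.75 times in the list and by 1.65 to 2.31 times in the arms. The group means of the list sum were 36303 and 28365 CPM in knockouts and wild types, a difference of 7937 CPM, of which miR-128-3p alone made 7276 CPM. Without miR-128-3p the list had 14327 to 21202 CPM in the knockouts and 11831 to 19471 in the wild types, and WT1 was then the highest wild type. Among the wild types the choroid plexus list of miR-204 and miR-211 ran the other way, with 10993 CPM in WT3 and 1985 in WT2. Among the knockouts its sum was highest in KO1 and lowest in KO3, at 7681 and 2051 CPM. That is as for miR-132-3p and the reverse of miR-212-5p.

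Set against the neuronal list of its own library, miR-132-3p equalled 14.7%, 13.3%, 9.99% and 13.8% of the list in KO1 to KO4 and 10.9%, 11.7% and 12.4% in WT1 to WT3. KO3 was the lowest library and the other knockouts were the highest, so the groups overlapped. The log2 ratio averaged -2.96 ± 0.25 over the knockouts (SD, n = 4) against -3.10 ± 0.10 over the wild types (SD, n = 3), a difference of 0.14. The edgeR log2 fold change of the level itself was 0.51. This ratio turned on miR-128-3p: against the list without it, an alternative chosen after seeing the data, miR-132-3p equalled 35.4%, 28.2%, 18.8% and 29.0% in KO1 to KO4 and 16.8%, 22.1% and 21.1% in WT1 to WT3, a log2 difference of 0.45. KO3 then lay below WT2 and WT3, and the groups still overlapped. The part of neuronal miRNA levels in the fold change of the arms was not tested.

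**Figure D4:**
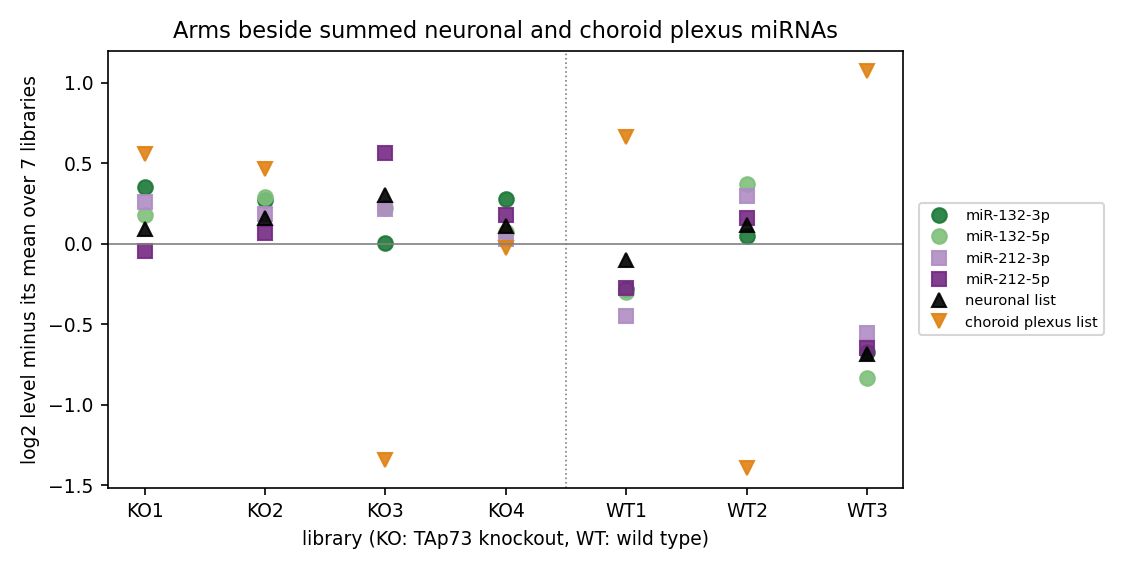
Log2 level of each arm, of the summed neuronal list and of the summed choroid plexus list in each library, each minus its own mean over the 7 libraries. In WT3 the 4 arms and the neuronal list all lie between -0.55 and -0.84 and the choroid plexus list at 1.08, while in WT2 the arms and the neuronal list lie above 0. Among the knockouts KO1 is highest and KO3 lowest for both miR-132-3p and the choroid plexus list, with miR-212-5p reversed.

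Of the 18 neuronal arms, 17 were tested and 10 had a log2 fold change above 0, with a median of 0.03. edgeR called 0 of them in either direction, as did DESeq2 and limma-voom, while 5 had an unadjusted edgeR p under 0.05, as did 12.9% of all tested miRNAs in either direction. miR-128-3p, a brain-enriched miRNA, had 0.70 ± 0.20 (edgeR adjusted p = 0.15), with 18222 to 20087 CPM in the knockouts and 8201 to 16418 in the wild types. miR-128-2-5p had 0.72 ± 0.28 and miR-129-2-3p had -0.46 ± 0.17 (edgeR adjusted p = 0.38 and 0.35). The list was therefore mixed in direction.

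A second list held 11 arms of miRNAs linked to synaptic activity, namely miR-134, miR-184, miR-188, miR-329, miR-381 and miR-485. Of these 9 were tested, 4 had a positive log2 fold change and the median was -0.16. edgeR, DESeq2 and limma-voom called 0, and 0 had an unadjusted edgeR p under 0.05. miR-485-5p had 0.30 ± 0.22, miR-381-3p had -0.16 ± 0.12 and miR-184-3p had 0.53 ± 0.41 (edgeR adjusted p = 0.60, 0.60 and 0.61). The other marker lists gave sums whose group ranges overlapped for choroid plexus, oligodendrocytes (topped by miR-219a-2-3p at 468 ± 89.2 CPM, SD, n = 7), erythrocytes (miR-451a at 119.7 ± 32.3) and vessel wall (miR-143-3p at 17686 ± 2846). The sums did not overlap for 3 lists. Of single tested miRNAs, which are not list sums, 4.87% had each knockout above each wild type. The share with each knockout below each wild type, the direction of the multiciliated list, is not given here. Neural progenitors and astrocytes, led by miR-9-5p, had 36400 to 43066 CPM in knockouts and 28400 to 34320 in wild types. Leukocytes and microglia, led by miR-150-5p at 353 ± 74.6 CPM, had 1011 to 1162 against 809 to 927, and multiciliated cells had 393 to 774 against 1272 to 3427. The multiciliated sum was carried by miR-34c-5p, and the list went both ways. Of its 9 members 6 were tested, and edgeR called the 4 arms of miR-34b and miR-34c lower, by log2 fold changes of -2.57 to -2.40, and miR-449a-5p and miR-449c-5p higher, by 2.67 and 3.14. These 6 were all the miRNAs that edgeR called, 1.12% of the 534 tested. These members were named after their values were seen. Among the listed arms, miR-211-3p of the choroid plexus, miR-449b of multiciliated cells, miR-219a-5p of oligodendrocytes and miR-126a-5p of vessels stood at 0 in each library. The other arm of the last hairpin, miR-126a-3p, averaged 934 CPM in knockouts and 909 in wild types. With the counting rules not given, a 0 in these rows cannot be read as an absent marker. The part of these cell types in the fold change of the arms was not tested.

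The miRNAs whose levels followed miR-132-3p most closely over the 7 libraries were chosen by the root mean square (RMS) difference of log2 levels, each centred on its own mean, among 197 tested miRNAs with a mean of at least 100 CPM. They were miR-674-3p at 0.14, miR-9-5p at 0.15, miR-128-3p at 0.17, miR-222-3p at 0.18 and miR-30a-3p at 0.18, where the median candidate was at 0.37. The other 3 arms of the transcript were at 0.18 for miR-212-3p, 0.19 for miR-132-5p and 0.28 for miR-212-5p. At that distance miR-212-5p took place 37 if ranked among the candidates.

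For miR-212-3p, among 402 miRNAs with a mean of at least 10 CPM, the closest were miR-674-3p at 0.11, miR-222-3p at 0.11, miR-9-5p at 0.16, miR-22-3p at 0.19 and miR-128-3p at 0.19. The closest arm of the transcript was miR-132-5p at 0.13. That pair, the minor arm of each hairpin, was the closest of the 6 pairs among the 4 arms, and the major arms miR-132-3p and miR-212-5p were the farthest apart at 0.28. These distances rest on the same 7 libraries and scaling, and are given as a description.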

How the data were processed

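The authors deposited, for each library, 1 table of unnormalized read counts by small RNA name. Tools listed in the submitters' processing notes, with no role given, are DESeq2 and bcl2fastq 2.17.1.14, and the build is mm10. No source used here names the aligner or counter. Per the labels' protocols, RNA was prepared by phenol/chloroform and libraries were made with the TruSeq small RNA kit, whose reads carry no molecular identifiers. The 5 closing lines for unassigned reads hold 0 reads and were left out. Groups come from the genotype label, so p-values reflect only how much these libraries vary, which may be technical. No 2 libraries agreed within sampling noise (chi-square per degree of freedom 46.6 to 271.2).

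The test on counts of the 1914 mouse rows used R 4.3.3 and edgeR 4.0.16 (TMM, filterByExpr with minimum count 10 and total 15, robust quasi-likelihood test, Benjamini-Hochberg). The test was also run on simulated data with changes larger than those of the arms, so that check does not cover changes of their size. CPM divides by mouse miRNA reads times the TMM factor, and likeness used log2(CPM + 1). Alternatives were DESeq2 1.42.0, limma-voom (limma 3.58.1), other scalings and filters, rows of all species, and left-out libraries. Named beside the 4 arms were the 5 miRNAs most like each 3p arm, the 3 smallest p-values of the neuronal and activity-linked lists, and the most abundant member of each other list. Members, lists and alternatives were chosen with earlier results of these data known.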

Additional observations from a re-analysis of the deposited data

How the results depend on the processing

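The number of called arms, 0 of 4 with all libraries, was 1 with no filter (miR-132-3p) and 2 with KO3 and WT2 left out together, and it ranged from 0 to 2 when each library was left out in turn, with 2 without WT2 only. It was 0 in the other alternatives, and all 72 fold changes of the arms over the 18 alternatives were above 0. The 6 miRNAs called among all tested became 13 in DESeq2 (which gave no adjusted p for 63 of 534), 19 with no filter, 14 without WT2, 3 without WT1 and 19 without KO3 and WT2. The knockout minus wild type difference in the 3p share of miR-212, -0.27 percentage points, was 2.22 in the 4 libraries with consecutive title numbers and -1.30 to 0.72 with single libraries left out; the cause was not tested. Over the same omissions the difference in the 3p share of miR-132 was -0.33 to 1.15 points, that of the summed log2 level 0.30 to 0.70, that of the log2 ratio of miR-132 to miR-212 -0.02 to 0.25 and that of the ratio to the neuronal list 0.07 to 0.26. The last difference, 0.14 with the whole list, was 0.45 without miR-128-3p, an alternative chosen after seeing the data. No paired analysis was possible because the labels give no replicate numbers that the genotypes share. KO3, with 969106 reads, still held 443 reads of the least abundant arm, so counting error was small for these arms. Whether its low read number shaped its values in other ways was not tested.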

Other observations

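The 21 rows that name miR-132 or miR-212 of other species held 0 reads in all 7 libraries, so summing species by name added 0 reads to the arms. Among the knockouts, miR-132-3p varied by 1.27 times, miR-132-5p and miR-212-3p by 1.17 times and miR-212-5p by 1.53 times between the lowest and highest library, where the wild types varied by 1.65, 2.31, 1.80 and 1.75 times. For miR-132-3p the lowest knockout and for miR-212-5p the highest knockout was KO3, the library with the highest neuronal list sum.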
